A study of Homo sapiens with 96 samples.

Results

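The proteasome subunit genes were taken as the rows of the raw count table whose symbol is PSMA, PSMB, PSMC or PSMD followed by a number, which gave 39 of 44659 gene entries. Of these, 19 (PSMA and PSMB) encode subunits of the core particle and 20 (PSMC and PSMD) encode subunits of the regulatory particle or factors that help assemble it. The filter on low counts, which edgeR sets from the group size and the library sizes, kept 34 of the 39, that is 14 core and 20 regulatory genes, among 14948 genes tested. The 5 genes that did not pass were core genes. PSMA8, a testis form of an alpha subunit, and PSMB8, an immunoproteasome subunit, had 0 counts over all libraries, PSMB9, a second immunoproteasome subunit, had 1, PSMB11, the thymus form, had 4, and PSMB3, a structural beta subunit, had 1. For PSMB3 a second entry of the same symbol with a suffix held 2776 counts, so the row that carries the plain symbol did not hold most of the reads given to this gene. The ATPase gene PSMC4 passed the filter with 2010 counts over 96 libraries, the smallest total among the 34, and a suffixed entry of it held 13.

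The libraries were made from cytoplasmic RNA of A375 cells, a human melanoma line whose growth depends on mutated BRAF, with QuantSeq, which reads the 3′ ends of polyadenylated transcripts. The pretreatment of 18 h was either DMSO or MAPKi, a pair of inhibitors that block BRAF (vemurafenib, 500 nM) and MEK (cobimetinib, 500 nM). They then received vehicle (DMSO), 100 µg/ml cycloheximide (CHX), which stops translation, 25 µM triptolide (T, written tryptolide in the labels), which stops transcription, or the combination (TCHX), in which cycloheximide went on 5 min ahead of triptolide, and were harvested at 0, 1, 3 or 5 h. This made 32 groups of 3 libraries, in which a "DMSO cell" had DMSO as pretreatment and an "MAPKi cell" the inhibitors. The 4 harvest times were 4 batches of plates, so time and batch cannot be told apart. The labels do not say whether the 3 replicates were separate cultures, and the p-values below measure the spread between these libraries. The edgeR tests took all libraries as independent, also those of the same replicate number at different times. If such libraries go together, the standard errors of means over times are too small. A375 is 1 line, and nothing here was measured on proteasome protein or activity.

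The proteasome degrades proteins that carry ubiquitin chains. Its core particle is a barrel of stacked rings, outer rings of alpha subunits that gate the entrance and inner rings of beta subunits, of which PSMB5, PSMB6 and PSMB7 cut peptide bonds and are replaced by PSMB8, PSMB9 and PSMB10 in the immunoproteasome. The regulatory particle caps the barrel with a base, in which a ring of ATPases (PSMC1 to PSMC6) unfolds the substrate, and a lid, in which PSMD14 removes ubiquitin. Transcription of subunit genes is known to be raised together by NFE2L1, a factor that is itself processed and degraded by this system, through the antioxidant response element.

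The promoters are shown because the subunit genes moved together with MAPKi (below) and because NFE2L1 is known to bind a short element, which was searched for here. The part of NFE2L1 in the change with MAPKi was not tested. RefSeq promoters of GRCh38.p14, each from 250 bases before to 50 bases after an annotated start, were found for 34 of the 39 genes and gave 41 windows. No entry was found for PSMA7, PSMB1, PSMB6, PSMB7 and PSMD4. The letters TGACNNNGC, searched on both strands and set in capitals, occurred in 10 of the 41 windows (24.39%) and in 13.35% of all 35116 RefSeq promoter windows. A match is a description of letters and not a bound site. PSMD12, with 1 match whose first base lies at -165 from the start, PSMD5 with 1 match at -134, PSMA4 with 1 match at -126 in the third of its windows, PSMD3 with 2 matches, and PSMD14, with no match and the largest fall with MAPKi, read as follows, 5′ to 3′ on the strand of the gene.
PSMD12, chr17:67366528-67366827, minus strand: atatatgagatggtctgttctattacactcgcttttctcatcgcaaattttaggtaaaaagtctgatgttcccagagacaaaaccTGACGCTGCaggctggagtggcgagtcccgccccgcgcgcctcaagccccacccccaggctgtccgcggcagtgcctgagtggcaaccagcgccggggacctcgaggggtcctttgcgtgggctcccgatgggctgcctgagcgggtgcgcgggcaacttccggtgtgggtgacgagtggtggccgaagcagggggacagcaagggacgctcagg
PSMD5, chr9:120842873-120843172, minus strand: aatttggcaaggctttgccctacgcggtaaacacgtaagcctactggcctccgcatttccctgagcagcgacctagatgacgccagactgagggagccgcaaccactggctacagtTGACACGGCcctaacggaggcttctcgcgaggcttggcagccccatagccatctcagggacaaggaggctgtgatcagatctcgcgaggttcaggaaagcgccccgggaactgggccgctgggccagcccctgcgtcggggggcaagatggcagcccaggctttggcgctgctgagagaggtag
PSMA4, chr15:78540536-78540835, plus strand: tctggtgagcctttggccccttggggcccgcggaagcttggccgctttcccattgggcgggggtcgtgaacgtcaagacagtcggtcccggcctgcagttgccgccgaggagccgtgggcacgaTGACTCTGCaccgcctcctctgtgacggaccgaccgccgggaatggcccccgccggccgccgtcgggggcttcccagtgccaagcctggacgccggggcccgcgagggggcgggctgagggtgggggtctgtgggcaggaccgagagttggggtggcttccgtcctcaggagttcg
PSMD3, chr17:39980557-39980856, plus strand: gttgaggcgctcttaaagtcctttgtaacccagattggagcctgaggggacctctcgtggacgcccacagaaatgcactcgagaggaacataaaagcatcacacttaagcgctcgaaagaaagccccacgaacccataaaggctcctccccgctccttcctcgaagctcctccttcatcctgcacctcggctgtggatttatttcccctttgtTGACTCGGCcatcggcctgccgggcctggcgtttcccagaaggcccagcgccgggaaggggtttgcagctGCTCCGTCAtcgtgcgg
PSMD14, chr2:161308175-161308474, plus strand: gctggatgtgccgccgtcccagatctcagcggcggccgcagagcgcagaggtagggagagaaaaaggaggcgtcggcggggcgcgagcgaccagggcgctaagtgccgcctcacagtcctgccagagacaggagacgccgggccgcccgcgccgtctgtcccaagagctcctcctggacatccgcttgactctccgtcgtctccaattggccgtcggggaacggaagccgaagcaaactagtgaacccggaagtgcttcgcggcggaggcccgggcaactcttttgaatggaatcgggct
The 10 genes with a match were PSMA4, PSMB3 and PSMB9 of the core and PSMC4, PSMC5, PSMD1, PSMD3, PSMD5, PSMD9 and PSMD12 of the regulatory particle. CCAAT occurred in 43.9% of the members' windows and 34.61% of all windows, GGGCGG in 65.85% and 44.95%, and TGACGTCA, the cyclic AMP response element, in 0 of 41 and 1.848%.

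Total counts ran from 2381351 to 12520154 per library with a median of 7143396, and Pearson correlations of log2 CPM (counts scaled to library size) between replicates lay between 0.9592 and 0.9905. Among the melanoma markers, SOX10, MITF, S100B, S100A1, MCAM, CSPG4 and DCT were present in every vehicle library, with SOX10 at 137.3 CPM or more, whereas the pigment genes MLANA, TYR and TYRP1 reached at most 3.045, 0.9471 and 3.784 CPM. With MAPKi the markers moved in both directions. Of the 10 that passed the filter on low counts, SOX10, MITF, S100A1, DCT, PMEL, MLANA and TYRP1 were higher and S100B, MCAM and CSPG4 were lower. Means over the vehicle libraries went from 49.85 to 1944 CPM for DCT, from 1.292 to 14.96 CPM for PMEL, from 263.5 to 56.45 CPM for CSPG4 and from 191.5 to 87.88 CPM for MCAM, none with overlap. The part of these changes in the results on the subunits was not tested. Within a group, the level of many subunit transcripts followed the total count of the library, as described at the end. The members together took 0.9219% to 0.9438% of all counts in the 4 DMSO vehicle groups and 0.6685% to 0.769% in the 4 MAPKi vehicle groups.

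The first comparison asked how MAPKi changed the subunit transcripts in the vehicle arm, as a mean over the 4 times. Nearly all fell. Of the 34 subunit genes, 31 were lower and 1 was higher in MAPKi cells, with a median log2 fold change of -0.515 and a range of -1.08 to 0.46. Over all genes tested, 32.8% were lower and 36% were higher, with a median of 0.06. In bulk libraries a lower share of cells that express a gene and less RNA per cell cannot be told apart. The core had 13 lower and 1 higher of 14 with a median of -0.48, and the regulatory particle had 18 lower and 0 higher of 20 with a median of -0.54. All 12 MAPKi libraries lay below all 12 DMSO libraries for 12 members, 4 core and 8 regulatory, which compares with 13.1% of all genes. The opposite order was found for 0 members and 10.3% of all genes. Under DESeq2 the counts were 30 lower and 1 higher.

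The lid held the largest falls. PSMD14, the deubiquitinase of the lid (GRCh38, chr2:161308425-161411717, plus strand), had 188.9, 206.1 and 230.5 CPM as the lowest, median and highest of the 12 DMSO libraries and 86.41, 93.5 and 111.8 CPM in the 12 MAPKi libraries. Its levels did not overlap, and its log2 fold change was -1.08 (SE 0.06, adjusted p = 8.62e-32). PSMD12, a scaffold subunit of the lid, had 128.2, 151.6 and 175.4 CPM in DMSO cells and 71.6, 79.27 and 87.92 CPM in MAPKi cells, again without overlap, and fell by 0.96 on the log2 scale (SE 0.05, adjusted p = 2.17e-30). PSMD11, a further lid scaffold subunit, had 247.9, 408.6 and 543.8 CPM against 139, 181.7 and 241.9 CPM. These also did not overlap, but the libraries of each pretreatment were widely spread, and the fall of 1.07 had an SE of 0.15 (adjusted p = 1.84e-09). All 8 lid genes were lower, with a median of -0.60 and the smallest fall in PSMD8 (-0.48).

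In the base, 5 of 6 ATPase genes and all 3 non-ATPase genes were lower. PSMC6, an ATPase (GRCh38, chr14:52707178-52728590, plus strand), had 143.5, 154.7 and 177 CPM as the lowest, median and highest DMSO library and 80.6, 97.4 and 116.2 CPM in MAPKi cells, without overlap, and a log2 fold change of -0.69 (SE 0.04, adjusted p = 2.02e-25). The ATPases ranged from -0.73 (PSMC1) to -0.16 (PSMC4, adjusted p = 0.612). PSMC4 was at 2.151 to 4.289 CPM in DMSO cells, and a single MAPKi library, replicate 3 at 1 h, stood at 18.39 CPM, where the 2 other libraries of that group had 2.468 and 3.509 CPM. Among the non-ATPases of the base, the fall was 0.51 for PSMD1, 0.32 for PSMD2 and 0.20 for PSMD4, a ubiquitin receptor. Of the assembly chaperones, PSMD5 (-0.58) and PSMD9 (-0.18) were lower, and PSMD10 had a log2 fold change of 0.17 (SE 0.10, adjusted p = 0.13).

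In the core, all 7 tested alpha ring genes, all 3 catalytic and all 3 tested structural beta genes were lower. The chymotrypsin-like subunit PSMB5 had 244.9, 262.8 and 313.8 CPM as the lowest, median and highest DMSO library and 143.4, 174.9 and 200.6 CPM in MAPKi cells, without overlap, and fell by 0.63 (SE 0.04, adjusted p = 2.28e-23). PSMB7, the trypsin-like subunit, fell by 0.50 (SE 0.06) and PSMB6, the caspase-like subunit, by 0.30 (SE 0.04). For both the groups overlapped, PSMB6 with a highest MAPKi library of 402.2 CPM and a lowest DMSO library of 347 CPM. The alpha ring genes had a median of -0.53 and ran from -0.84 for PSMA3 to -0.30 for PSMA6, and the structural beta genes PSMB1, PSMB2 and PSMB4 had -0.23, -0.46 and -0.41.

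PSMB10, the immunoproteasome counterpart of PSMB7 (GRCh38, chr16:67934506-67936864, minus strand), was the 1 member that rose. Its lowest, median and highest level was 33.5, 41.33 and 47.67 CPM in DMSO cells and 47.55, 55.12 and 67.9 CPM in MAPKi cells, so that only the ends of the groups touched. The log2 fold change was 0.46 (SE 0.07, adjusted p = 5.02e-09). Its exons overlap those of an unnamed annotated gene on the same strand, and its value is uncertain where the counting split these reads. Its partners PSMB8 and PSMB9 were at or near 0 counts on the plain symbol, as given above. For each, 7 further entries of the symbol with a suffix held 9 and 59 counts, so that their reads were split and no change was assessed.

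**Figure D1:**
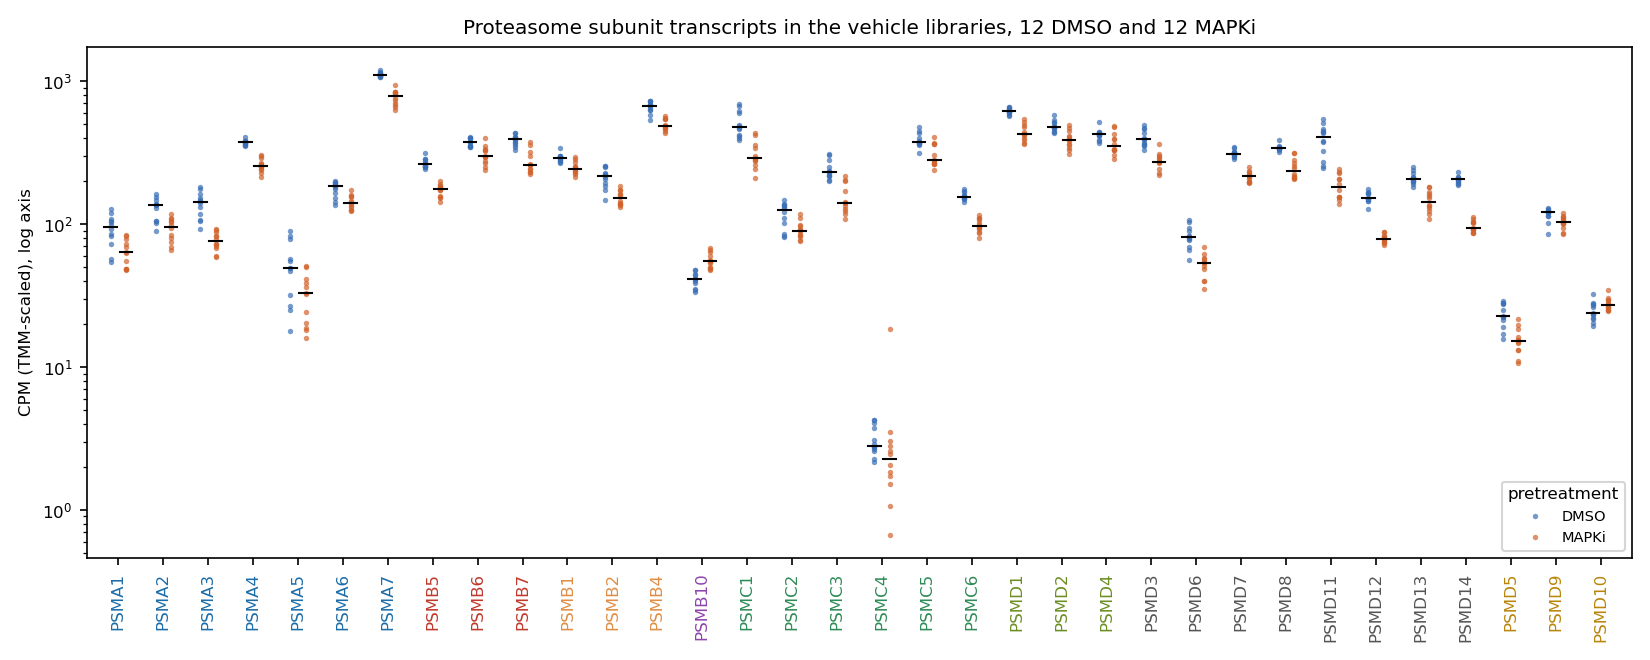
Level of each of the 34 tested subunit transcripts in CPM (log axis, TMM-scaled) in the 12 DMSO and 12 MAPKi vehicle libraries, with a bar at the median and gene names coloured by role. The MAPKi points of PSMD12 and PSMD14 lie wholly below the DMSO points, those of PSMB10 lie above apart from 1 near-tie, and PSMC4 has a single MAPKi point at 18.39 CPM.

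**Figure D2:**
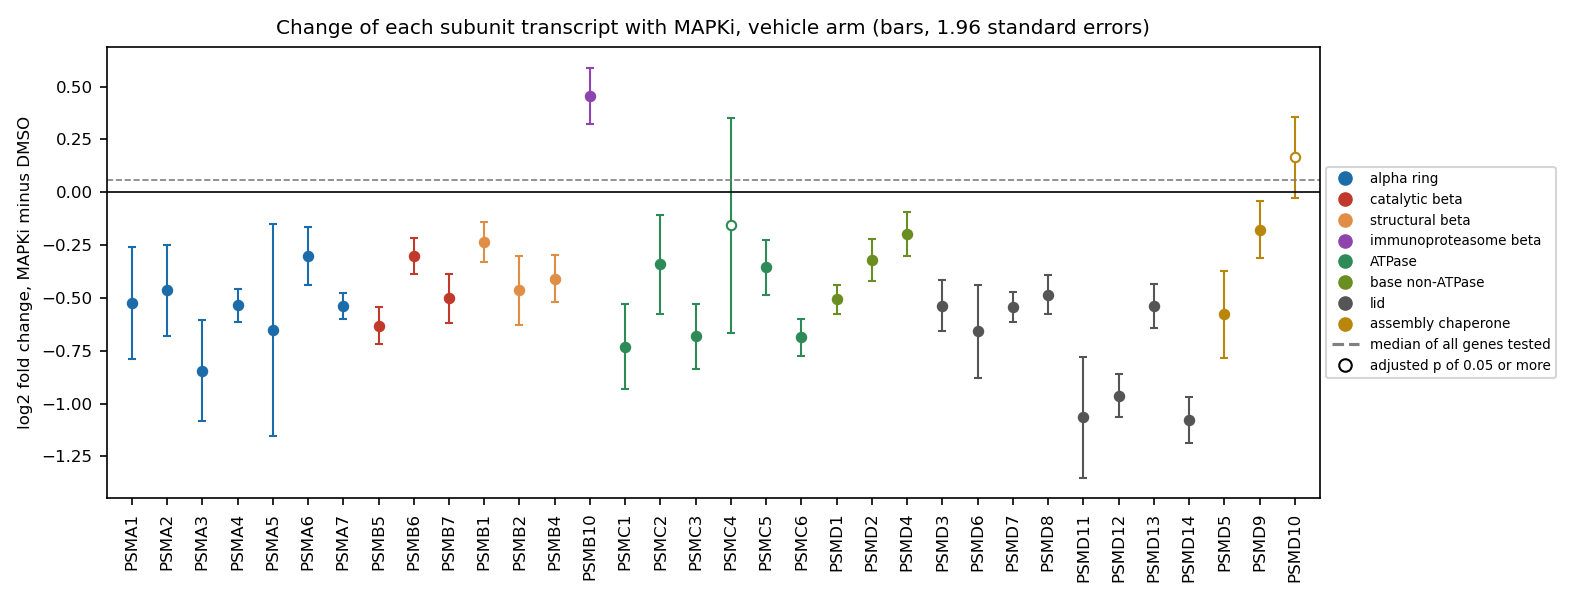
Log2 fold change of each subunit transcript, MAPKi minus DMSO over the vehicle arm, on the vertical axis, with bars of about 2 standard errors and colour by role. Filled points passed an adjusted p of 0.05. Of the 34 points 31 are filled and lie below 0, PSMB10 is filled and lies above, and PSMC4 and PSMD10 are open, while the dashed line marks the median of all genes tested (0.06).

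Other genes of the pathway, from a fixed list of activators, inhibitors, assembly factors, associated enzymes and NFE2L1 with its processing factors, moved the same way in most cases. Of 25 tested, 20 were lower, 2 were higher and 3 did not pass the test, with a median of -0.61. Over all genes tested, 32.8% were lower and 36% were higher, with a median of 0.06. The assembly chaperone PSMG1 had 59.99, 75.87 and 95.43 CPM as the lowest, median and highest DMSO library and 20.82, 24.29 and 30.6 CPM in MAPKi cells, and fell by 1.68. The maturation factor POMP fell by 1.02, the deubiquitinase UCHL5 by 1.21, its receptor on the proteasome ADRM1 by 0.91, and the nuclear activator PSME3 by 1.02. NFE2L1 itself fell by 0.16, DDI2, the protease that cleaves it, by 0.85, and VCP, which extracts it from the endoplasmic reticulum, by 0.19. The genes that rose were ZFAND5, a proteasome-binding activator of degradation (0.65), and NGLY1, the deglycosylase of NFE2L1 (0.20). SEM1, PSME1 and UBQLN2 did not pass the test, and PSME2 did not pass the filter.

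The balance of the particles was described per library as the mean log2 CPM of the 14 core genes minus that of the 20 regulatory genes. It was 0.25 to 0.44 in the means of the 4 DMSO vehicle groups and 0.37 to 0.51 in those of the 4 MAPKi vehicle groups. The change from DMSO to MAPKi cells was 0.11 (SD 0.09 over the differences within 3 replicate numbers), close to this SD. The replicate numbers did not pair the samples between groups of the same time, so these differences join unmatched libraries. Pairing across the 4 times within an arm was not checked. In the DMSO vehicle groups the balance was lowest in replicate 1 (0.17 to 0.38) and highest in replicate 3 (0.40 to 0.52) at each time. In the MAPKi vehicle groups the order of the replicates changed with time. The change was 0.06 without replicate 1 (SD 0.01), 0.13 without replicate 2 and 0.14 without replicate 3. With the summed CPM of each class it was 0.08, and 0.17 when the 3 assembly chaperones were left out. It was thus above 0 in each setting, at a size that varied. Without replicate 1 the median fall of the regulatory genes was also no larger than that of the core, with -0.47 against -0.495. A larger fall of the regulatory particle than of the core was therefore not resolved in the vehicle arm, where no test of it was run.

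Cycloheximide alone was taken as a mean over 3 and 5 h against vehicle at the same times. In this setting the lower calls among the subunit genes were near the share of all genes, and the higher calls were below it. In DMSO cells 2 of 34 were higher and 5 were lower, where 17.2% and 14.8% of all genes were. In MAPKi cells 1 was higher and 4 were lower, where 15.9% and 13.8% of all genes were. By medians, the core was at -0.23 in MAPKi cells, with all 14 genes below 0, the regulatory particle at -0.04 and all genes at -0.01. The regulatory median was above the core median by 0.12 to 0.22 in the 10 settings there. In DMSO cells this difference ran from -0.08 to 0.08. No test was run between the particles. PSMD5, an assembly chaperone of the base, rose under both pretreatments, by 0.45 (SE 0.14, adjusted p = 0.0115) and 0.43 (SE 0.15, adjusted p = 0.0186). PSMD2, a scaffold of the base, fell by 0.29 under each (SE 0.07, adjusted p = 6.96e-04 in DMSO cells and 8.02e-04 in MAPKi cells). In DMSO cells PSMC6 rose by 0.27, and PSMD3, PSMB6, PSMA4 and PSMA7 fell by 0.22, 0.19, 0.18 and 0.16. In MAPKi cells PSMB4, PSMB5 and PSMA7 fell by 0.26, 0.255 and 0.23, and PSMB6 and PSMB7 had -0.10 and -0.09 without passing the test. PSMB10 had -0.16 in DMSO cells and -0.07 in MAPKi cells, neither past the test. The difference between the pretreatments in the effect of cycloheximide passed the edgeR test for 0 members in either direction and DESeq2 for 0, against 5.02% and 5.83% of all genes. At an unadjusted p under 0.05, 1 member was higher and 3 were lower, where 1604 and 1832 of the 14948 genes were. These counts are small and moved with the replicates. In DMSO cells 1 was higher without replicate 1 or 2, where 1878 and 2095 of all genes were. There 2 or 3 were lower without replicate 2 or 3, where 1519 and 1363 genes were. In MAPKi cells 0 were higher without replicate 1 or 2, where 1724 and 2024 genes were.

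Triptolide stops transcription, so that the level left after 3 and 5 h follows the loss of transcript that was already present. Values under triptolide were scaled on 36 genes, none of them a member, whose CPM was higher than at the start under triptolide in every replicate of both pretreatments, and are given as percent of the vehicle level at 0 h. By the medians over genes, more of the core transcripts than of the regulatory ones was left, in each of the 3 replicates, and more of both than of all genes. No test was run between the lists. At 5 h the median core transcript was at 92.8% ± 1.63 (SD, n = 3) in DMSO cells and 79.4% ± 4.29 in MAPKi cells. The median regulatory transcript was at 79.7% ± 4.06 and 72.2% ± 3.41, and the median of all genes at 64.4% ± 3.16 and 59.3% ± 1.44. In the test on log2 values, 12 of 34 members were lower than at the start in DMSO cells (3 core, 9 regulatory) and 18 in MAPKi cells (6 core, 12 regulatory), where 48.4% and 55.8% of all genes were lower. 0 members were higher in either by edgeR and by DESeq2, with 0 also at an unadjusted p under 0.05, against 1.3% and 1.26% of all genes. All 12 called in DMSO cells were among the 18 called in MAPKi cells. The direction rests on the scaling. TMM factors hold the bulk of genes level. With them the calls turned to 16 higher and 0 lower in DMSO cells and 20 higher and 1 lower in MAPKi cells. Over all genes TMM gave 1741 higher and 3128 lower, and 2754 and 3157. With total counts the member calls were 2 higher and 2 lower, and 4 higher and 3 lower. Over all genes total counts gave 639 higher and 3935 lower, and 667 and 4612. The median of all genes moved from -0.47 to -0.01 with TMM in DMSO cells and from -0.59 to 0.04 in MAPKi cells. Relative to that median the members were higher by 0.30 in DMSO cells and by 0.29 in MAPKi cells, a difference that scaling leaves nearly as it is by construction. Without the filter on low counts, which adds genes at few counts to the median of all genes, this gap was -0.01 and -0.04. Without replicate 3 the count in DMSO cells was 7 lower, where 6498 of all genes were, against 7234 with all replicates.

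PSMC6 was lost most in MAPKi cells. At 3 h its replicates were at 77.0%, 75.3% and 65.6% of the start in DMSO cells and at 48.3%, 59.1% and 54.5% in MAPKi cells. At 5 h they were at 66.5%, 64.1% and 62.1% in DMSO cells and at 40.6%, 47.5% and 47.3% in MAPKi cells. All 3 MAPKi replicates lay below all 3 DMSO replicates at both times. On the log2 scale PSMC6 fell by 0.55 (SE 0.08, adjusted p = 1.1e-08) in DMSO cells and by 1.02 (SE 0.08, adjusted p = 8.99e-20) in MAPKi cells. PSMD12 was at 60.1%, 70.0% and 54.1% at 5 h in DMSO cells and at 43.7%, 62.7% and 38.9% in MAPKi cells, where the groups overlap, and fell by 0.62 and 0.84. PSMD5 was at 72.8%, 74.9% and 64.7% at 5 h in DMSO cells and at 38.0%, 63.2% and 51.1% in MAPKi cells and fell by 0.49 and 0.79. Among the catalytic subunits PSMB5 fell by 0.23 (adjusted p = 0.0233) and 0.39 (adjusted p = 8.78e-05) under stable-gene scaling, but had 0.24 in both under TMM and 0.10 in DMSO cells with total counts. PSMB6 and PSMB7 had -0.16 and -0.14 in DMSO cells and -0.17 and -0.20 in MAPKi cells, and PSMB10 had -0.15 and -0.24, none past the test.

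By role, the members lower under triptolide in MAPKi cells were 6 of 8 lid genes, 2 of 6 ATPases, 2 of 3 non-ATPases of the base, 2 of 3 assembly chaperones, 3 of 7 alpha ring genes, 2 of 3 structural beta genes and 1 of 3 catalytic beta genes. The median of the regulatory genes minus that of the core genes was negative under all 13 settings, the reported one included, for each pretreatment, from -0.19 to -0.12 in DMSO cells and from -0.41 to -0.09 in MAPKi cells. The settings that differ in scaling alone shift all genes nearly alike and do not bear on this difference. Among the related genes 18 of 25 were lower in DMSO cells and 20 in MAPKi cells, where 48.4% and 55.8% of all genes were, with ZFAND5 (-1.49 and -2.08) and DDI2 (-1.03 and -1.57) the lowest. The difference between the pretreatments in the triptolide effect passed the test for 1 member, PSMC6 (-0.47, SE 0.12, adjusted p = 0.00959), and for 0 in the other direction by edgeR, by DESeq2 and at an unadjusted p under 0.05, against 2.72% and 0.401% of all genes. The PSMC6 call was lost when any 1 of the 3 replicates was left out and under TMM. Over all genes the lower calls went from 407 to between 93 and 176 with a replicate left out and to 198 under TMM.

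**Figure D3:**
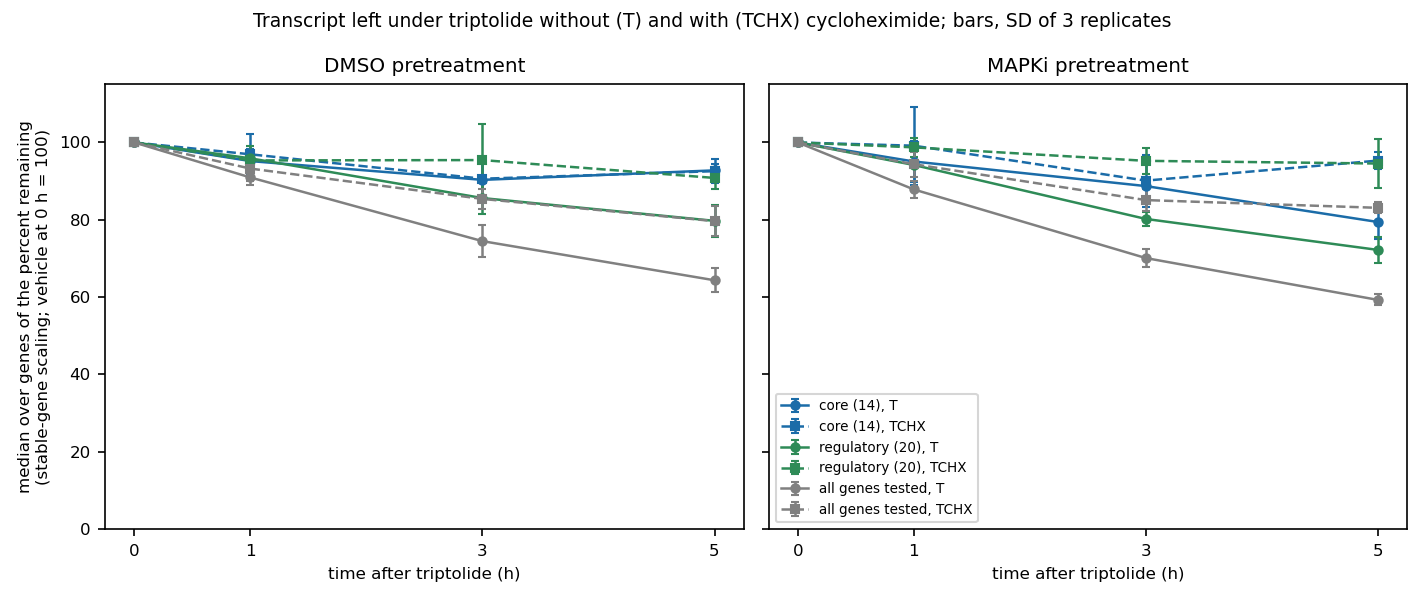
Percent of the vehicle level at 0 h that was left (vertical axis) against hours after triptolide, as the median over 14 core genes, 20 regulatory genes or all genes tested, with the SD of 3 replicates, where solid lines are T, dashed lines TCHX. Core lines lie above regulatory lines at 3 and 5 h under T in both panels, and with cycloheximide both stay near 90% to 95% at 5 h. The heights depend on the stable-gene scaling, and under TMM most members would lie above their starting level under T.

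The comparison of TCHX with T asked how much of the loss needed translation. In DMSO cells 6 of 34 members were higher with cycloheximide, all regulatory, and 0 were lower, where 28.4% and 0.455% of all genes were. In MAPKi cells 19 were higher, 5 core and 14 regulatory, and 0 were lower, where 41.3% and 0.522% of all genes were. The median log2 difference was 0.01 for the core and 0.18 for the regulatory particle in DMSO cells, and 0.175 and 0.35 in MAPKi cells, where all genes had 0.23 and 0.335. With DESeq2, 6 and 19 were higher and 0 were lower, and at an unadjusted p under 0.05 0 were lower in either. The calls rest on the scaling. With TMM they were 0 higher and 4 lower in DMSO cells and 4 higher and 7 lower in MAPKi cells. Over all genes TMM gave 2353 higher and 805 lower, and 2914 and 1969. With total counts the member calls were 1 higher and 0 lower, and 7 higher and 1 lower. Over all genes total counts gave 2769 higher and 305 lower, and 3772 and 735. The regulatory median was above the core median under all 12 settings, the reported one included, among which those of scaling cannot change this difference by much, by 0.08 to 0.21 in DMSO cells and by 0.11 to 0.21 in MAPKi cells. Without replicate 3 the count in DMSO cells was 2 higher, where 2990 of all genes were, against 4245 with all replicates. These comparisons share the T libraries with those of the loss above and are not independent of them.

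The 6 genes called in DMSO cells were PSMC6, PSMD1, PSMD4, PSMD5, PSMD7 and PSMD12, and all were also among the 19 called in MAPKi cells. At 5 h with both drugs PSMC6 was at 85.4%, 86.1% and 82.1% of the start in DMSO cells and at 78.0%, 83.1% and 90.02% in MAPKi cells, each replicate above every replicate with triptolide alone. The log2 difference of TCHX and T was 0.35 (SE 0.07, adjusted p = 1.38e-05) for PSMC6 in DMSO cells and 0.77 (SE 0.07, adjusted p = 4.89e-17) in MAPKi cells. PSMD7, a scaffold of the lid, was at 74.5%, 74.2% and 70.5% under T at 5 h in DMSO cells and at 97.7%, 87.9% and 98.8% under TCHX. In MAPKi cells PSMD7 was at 55.1%, 57.2% and 59.0% under T and at 97.7%, 103.4% and 111.7% under TCHX, and the arms did not overlap under either pretreatment. PSMD12 was at 85.9%, 81.7% and 79.8% under TCHX at 5 h in DMSO cells and at 94.4%, 92.4% and 86.7% in MAPKi cells, above its levels under T. PSMD5 rose by 0.35 (SE 0.14, adjusted p = 0.0439) and 0.84 (SE 0.14, adjusted p = 6.85e-07). PSMC4 had the largest difference in MAPKi cells, 0.95, but with an SE of 0.38 (adjusted p = 0.0372) at its low counts.

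Of the catalytic subunits, PSMB7 rose by 0.46 (SE 0.09, adjusted p = 1.85e-05) and PSMB5 by 0.23 (SE 0.07, adjusted p = 0.00649) in MAPKi cells, whereas PSMB6 had 0.15 (adjusted p = 0.101). PSMB5 had -0.14 under TMM and -7.61e-04 with total counts, so that its direction also depends on the scaling. In DMSO cells PSMB5, PSMB6 and PSMB7 had 0.14, 0.12 and 0.13, and PSMB10 had 0.15 in DMSO cells and 0.20 in MAPKi cells, none past the test. The members that rose in MAPKi cells were 6 of 8 lid genes, 5 of 6 ATPases, 2 of 3 non-ATPases of the base and 1 of 3 assembly chaperones, against 2 of 7 alpha ring genes, 2 of 3 catalytic and 1 of 3 structural beta genes. Among the related genes 7 of 25 rose in DMSO cells, the share of all genes (28.4%), and 19 in MAPKi cells, where 41.3% of all genes did.

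**Figure D4:**
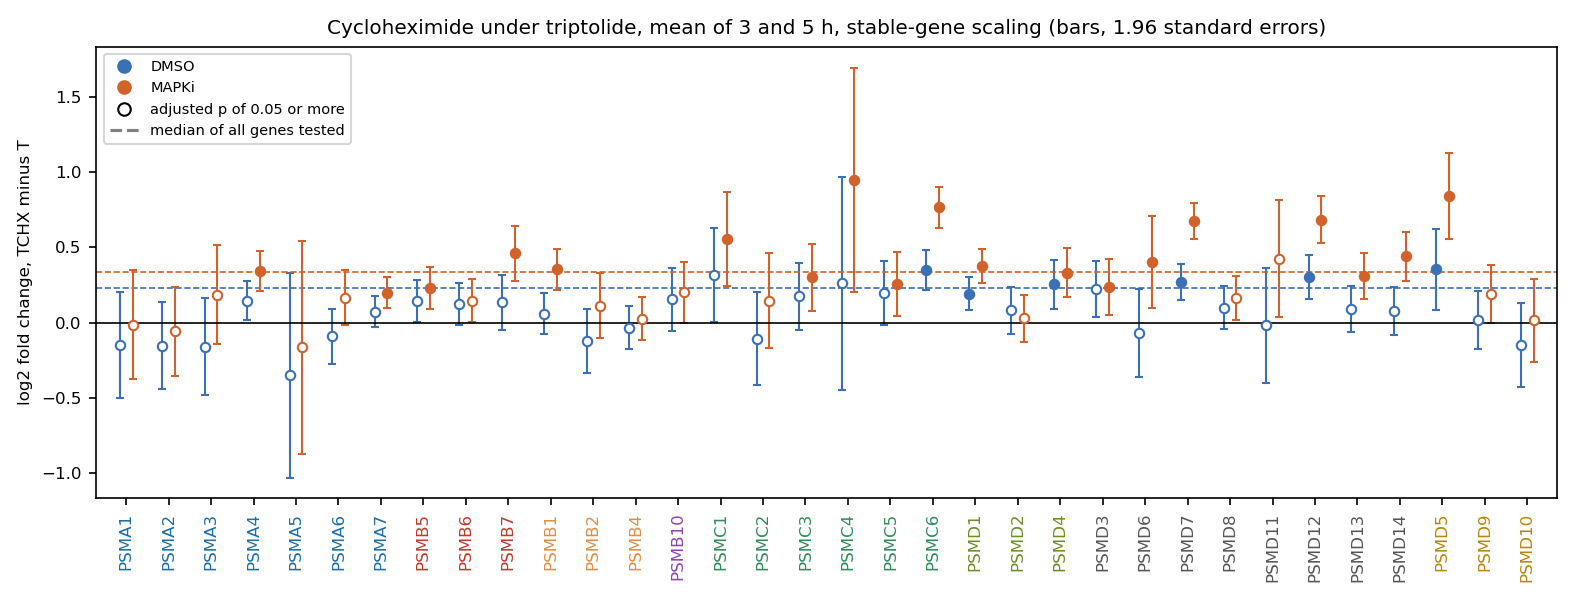
Log2 difference between TCHX and T, mean of 3 and 5 h with stable-gene scaling, for each tested subunit transcript in DMSO and MAPKi cells, with bars of about 2 standard errors and dashed lines at the medians of all genes. Filled points passed an adjusted p of 0.05: 6 in DMSO cells and 19 in MAPKi cells, with PSMC6, PSMD7, PSMD12 and PSMD5 among the highest. With TMM the filled points would be 4 lower in DMSO cells, and 4 higher and 7 lower in MAPKi cells. Over all genes TMM gave 805 lower in DMSO cells, and 2914 higher and 1969 lower in MAPKi cells.

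The gap between TCHX and T was wider in MAPKi than in DMSO cells for 5 members and narrower for 0, where 6.73% and 0.294% of all genes were. DESeq2 gave 5 and 0, and 0 were narrower at an unadjusted p under 0.05. The rule for named genes gives PSMC6 (0.42, SE 0.10, adjusted p = 0.00173), PSMD7 (0.41, SE 0.09, adjusted p = 7.39e-04) and PSMD12 (0.38, SE 0.11, adjusted p = 0.0174), and PSMD14 (0.36; adjusted p = 0.0392) and the core gene PSMB1 (0.30; adjusted p = 0.0487) are named after their values were seen. Without replicate 3 the count was 0, without replicate 1 it was 1 and without replicate 2 it was 3. With TMM it was 1. Over all genes these settings gave 429, 498, 548 and 411, against 1006 in the reported fit.

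The TDD index, a measure of decay that depends on translation, is the normalized count in TCHX minus that in T, divided by the vehicle count at 0 h, and was fitted per gene on pretreatment, time and replicate. Its median over the 20 regulatory genes was 0.11 ± 0.06 (SD, n = 3) in DMSO cells and 0.21 ± 0.002 in MAPKi cells, and over the 14 core genes 0.007 ± 0.010 and 0.11 ± 0.02. The median of the 11422 genes modelled was 0.12 ± 0.03 and 0.18 ± 0.01. The lid gene PSMD7 had an index of 0.21, 0.09 and 0.18 in the 3 DMSO replicates and 0.40, 0.33 and 0.39 in the MAPKi replicates, and PSMC6 had 0.14, 0.20 and 0.22 against 0.32, 0.30 and 0.42. For both, the replicates of the pretreatments did not overlap. 0 of 34 members passed the adjusted test in either direction, with PSMC6 at an adjusted p of 0.0588 and PSMD7 at 0.0820 in the linear model, against 0.0963% and 0% of all genes. At an unadjusted p under 0.05, 10 were higher and 0 were lower, where 1597 and 161 of the 11422 genes were. Limma's moderated test called 0 members, but it called 0 of all genes too and so cannot set the members apart. Index values at 3 and 5 h share the vehicle count of their replicate number, and the models took them as independent. Of the catalytic subunits, PSMB7 had an increase of 0.24 and PSMB5 and PSMB6 of 0.04 and 0.01.

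Composition, which the rule did not use, was compared between the particles. Aspartate, glutamate, lysine and asparagine made up a median of 26.1% of the residues of the 20 regulatory proteins, 20% of the 19 core proteins and 20.8% of all coding genes. The codons GAA, GAT, AAA and AAT made up 12.1%, 8.46% and 8.08%. PSMD7 had the highest share of the 4 residues among the members (34.0%) and PSMB11 the lowest (12.7%). Across the 34 tested members, the share of the 4 codons had a Spearman correlation of -0.50 with the log2 fold change with MAPKi (all genes, -0.09), 0.53 with the change of the TDD index (all genes, 0.20) and 0.57 with the difference of TCHX and T between the pretreatments (all genes, 0.147). For the share of the 4 residues the values were -0.335, 0.281 and 0.323 (all genes, -0.09, 0.151 and 0.109). Median protein length was 412 residues in the regulatory particle and 250 in the core. Length had -0.327, 0.118 and 0.136 in the same comparisons (all genes, 0.048, 0.021 and 0.023). For TCHX against T itself, length had 0.63 in DMSO cells and 0.547 in MAPKi cells (all genes, 0.129 and 0.122). The share of the 4 codons had -0.016 and 0.282 there. The TDD index and the difference of TCHX and T rest on the same libraries. All these correlations are over genes of the same libraries and are descriptions only. The share of the 4 codons also had a Spearman correlation of 0.366 with the slope on library depth described next (all genes, 0.217), and the part of depth in these correlations was not tested.

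Levels of many subunit transcripts differed between replicates of a group together with the total count of the library, a pattern found after the data were seen. With the log2 total count as a covariate beside the group means, 15 of 34 members were higher in deeper libraries and 12 were lower, where 20.9% and 19.7% of all genes were. PSMA5, an alpha ring gene, had the largest slope, 1.29 on the log2 scale per doubling of the total (SE 0.10), followed by PSMD11 (0.69) and PSMA1 (0.63). The lowest slopes were those of the ATPase genes PSMC1 (-0.39), PSMC3 (-0.31) and PSMC5 (-0.305). PSMA7, the most counted subunit gene, had 0.001, and of the catalytic genes PSMB5, PSMB6 and PSMB7 had -0.11, -0.14 and -0.19. Both particles were split, with 7 higher and 4 lower in the core and 8 and 8 in the regulatory particle. In the deviations of the 96 libraries from their group means, PSMA5 had a Pearson correlation of 0.86 with the total and PSMC1 of -0.67, and the 561 pairs of members had correlations from -0.86 to 0.93 with a median of 0.04. Over the members, the slope had a Spearman correlation of 0.53 with the share of codons that end in A or T (all genes, 0.26). Exons of some members overlap those of other annotated genes, where the counting could split reads or, if it ignored strand, could not tell them apart. On the other strand these were PSMC1, with NRDE2, and PSMC5, with FTSJ3, both with negative slopes, PSMA2, PSMC2, PSMD6, PSMD9 and PSMD11 with positive slopes, and PSMD1 and PSMD7 with neither. On the same strand they were PSMA1, PSMA2, PSMA6, PSMB10, PSMC2 and PSMD9.

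**Figure D5:**
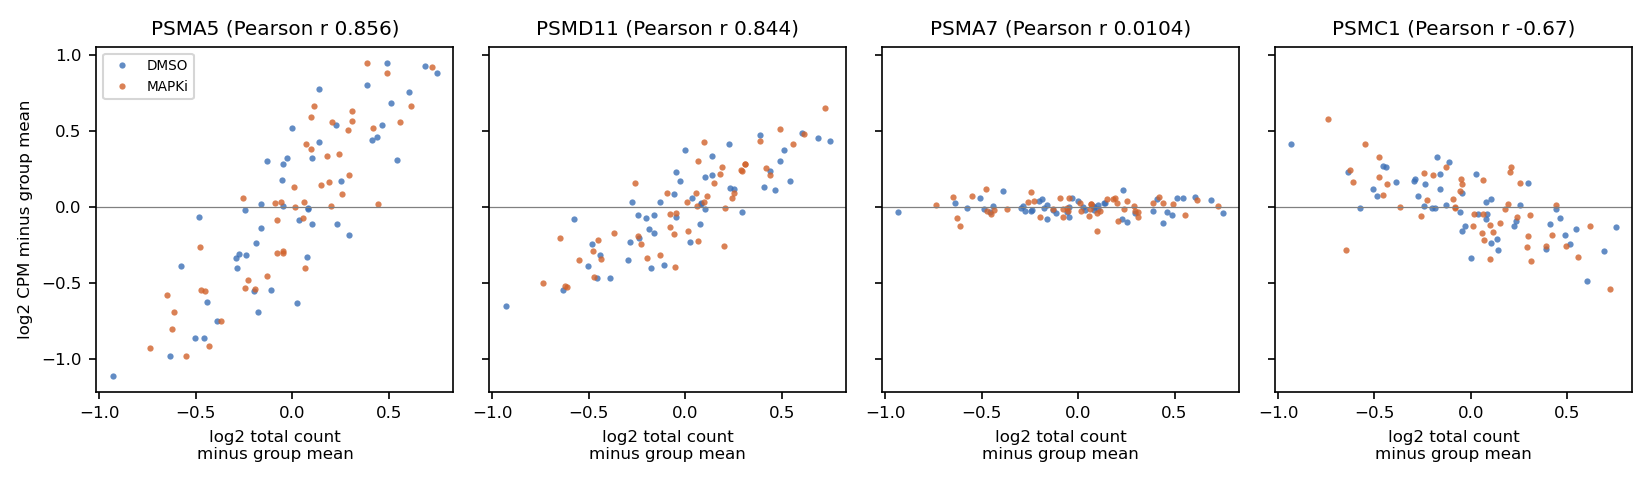
Deviation of log2 CPM from the group mean (vertical axis) against deviation of the log2 total count from the group mean for 4 members, 1 point per library, coloured by pretreatment. PSMA5 and PSMD11 rise with the total count (Pearson r 0.86 and 0.84), PSMA7 lies flat (0.01) and PSMC1 falls (-0.67).

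Mean totals of the groups ran from 4320062 (MAPKi, T, 0 h) to 9015882 (MAPKi, CHX, 0 h). With the total count as a covariate the MAPKi comparison gave 31 lower and 2 higher members, where 5001 and 5519 genes were, the loss under triptolide 12 and 23 lower in DMSO and MAPKi cells, where 7634 and 8743 of the 14948 genes were lower, and the gain with cycloheximide 6 and 25 higher, where 4393 and 6519 genes were higher. The counts for cycloheximide alone became 2 higher and 6 lower in DMSO cells and 1 higher and 10 lower in MAPKi cells, where 2744 and 2461, and 2618 and 2508, genes were.

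The vehicle arm itself gives the drift over 5 h against which the timed comparisons can be read. In DMSO cells 0 members were higher and 0 lower at 5 h than at 0 h by edgeR and by DESeq2, against 0.609% and 0.482% of all genes. At an unadjusted p under 0.05, 1 member was higher and 1 was lower, where 883 and 870 of the 14948 genes were. In MAPKi cells 0 were higher, also at an unadjusted p under 0.05 and by DESeq2, and 3 were lower, PSMB6 (-0.34; adjusted p = 0.0125), PSMA7 (-0.26; adjusted p = 0.00605) and PSMD1 (-0.25; adjusted p = 0.0264), against 1.2% and 2.03% of all genes. Each of these calls was lost when any 1 replicate was left out, where the lower calls over all genes went from 304 to between 63 and 114. At an unadjusted p under 0.05, 11 members were lower in MAPKi cells, where 1272 genes were. The median of the members there was -0.18, with 27 below 0 and 7 above, and that of all genes -0.003. It lay below all genes by 0.14 to 0.20 in the 9 settings. In DMSO cells the medians were 0.05 and -0.002. PSMB5 and PSMB7 had -0.26 and -0.14 in MAPKi cells, and PSMC6, whose loss under triptolide was largest there, had -0.25 (adjusted p = 0.108) without triptolide.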

How the data were processed

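Cytoplasmic RNA of 96 A375 libraries (32 groups of 3) was sequenced by QuantSeq. The authors deposited raw read counts per gene, made with fastp 0.20.1, HISAT2 2.2.1 on GRCh38.p13 and HTSeq 0.13.5, per the labels and the submitters' processing notes. No molecular identifiers were used, and the strand setting is not given in the sources used here. Spike-in RNA was added per the labels, and it was not used here.

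Members and gene lists were chosen with earlier results of these data known. All gene entries were fitted together in R 4.3.3 with edgeR 4.0.16 (filterByExpr, robust quasi-likelihood test, 1 mean per group, two-sided), with Benjamini-Hochberg adjustment over 14948 genes and calls under 0.05. Library factors were TMM for vehicle and cycloheximide comparisons. For triptolide they came from 36 stable genes, with CPM over 0.2 at the start and at least 1.1 times that later. Log2 CPM used a prior count of 2. The TDD index was fitted by a linear model on genes with an initial normalized count of at least 10. Alternatives were DESeq2 1.42.0, limma 3.58.1 for the index, other scalings, filters and times, a replicate block and each replicate left out. The scripts were tested on simulated data. Totals of 2381351 to 12520154 counts limit precision for low genes such as PSMC4.

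In each comparison the text names the 3 called members with the largest rise and the 3 with the largest fall, any called member against the majority, PSMB5 to PSMB10 among the catalytic and immunoproteasome genes, and members that did not pass the filter. Other genes, among them PSMD14 and PSMB1 in the interaction and all in the account of total counts, were chosen after their values were seen.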

Additional observations from a re-analysis of the deposited data

Results flagged for a closer look

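These results differed between DMSO and MAPKi cells by an interaction term in edgeR's quasi-likelihood test, with adjusted p under 0.05. The effect of triptolide on PSMC6 differed by -0.47, a larger loss in MAPKi cells. This call was lost when any 1 replicate was left out and under TMM, and 1 of 34 members (2.94%) stands beside 2.72% of all genes. The lower calls over all genes went from 407 to between 93 and 176, and to 198 under TMM. The gap between TCHX and T differed by 0.42 for PSMC6, 0.41 for PSMD7, 0.38 for PSMD12, 0.36 for PSMD14 and 0.30 for PSMB1, wider in MAPKi cells in each case. These 5 calls became 0 to 3 when a replicate was left out and 1 under TMM. Over all genes the calls in this direction went from 1006 (6.73%) to between 429 and 548, and to 411 under TMM. Both interactions use the same triptolide libraries, and PSMC6 in the one is not independent of PSMC6 in the other. Groups of 3 libraries are too small for the test for single libraries that stand apart.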

How the results depend on the processing

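Counts of called members stayed within 1.5 times of the reported count in 206 recomputations and moved further in 57. Counts that were 0 and stayed 0 are among the 206 and say little about stability. Both numbers also take in the recomputations of the balance of the particles, which is not a count. The comparison of MAPKi with DMSO gave 28 to 30 lower and 1 to 2 higher members when a replicate was left out. It gave 20 lower at 0 h only, and 2 higher with total counts. Over all genes these were 4421 to 4576, 4787 to 4945, 3515 and 6418. Triptolide counts turned with scaling. The counts over all genes under TMM and total counts are given with each of these comparisons above. With TMM there were 16 higher and 0 lower members in DMSO cells and 20 and 1 in MAPKi cells, and with total counts 2 and 2, and 4 and 3. PSMB5 under triptolide was then 0.24 in DMSO cells and 0.24 in MAPKi cells with TMM and 0.10 in DMSO cells with total counts. For TCHX against T, TMM gave 0 higher and 4 lower in DMSO cells and 4 and 7 in MAPKi cells. Total counts gave 1 higher in DMSO cells and 7 higher and 1 lower in MAPKi cells. No filter gave 1 lower in DMSO cells, where 139 of all genes were. PSMB5 there had -0.14 with TMM and -7.61e-04 with total counts in MAPKi cells. The cause of each was not tested.

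Leaving out a replicate gave 7 to 15 lower members under triptolide in DMSO cells and 2 to 5 higher for TCHX against T there. Over all genes these were 6498 to 6905 and 2990 to 3101, against 7234 and 4245 with all replicates. The triptolide interaction gave 0 and the TCHX interaction 0 to 3. Over all genes these were 93 to 176 and 429 to 548, against 407 and 1006. Vehicle over 5 h in MAPKi cells gave 0 lower, where 63 to 114 genes were, against 304. Cycloheximide gave 1 to 2 higher and 2 to 4 lower in DMSO cells and 0 to 1 higher in MAPKi cells. Over all genes these were 1878 to 2095, 1363 to 1637 and 1724 to 2024, against 2573, 2219 and 2372. For cycloheximide, no filter gave 2 lower in DMSO cells and 7 lower in MAPKi cells, and 5 h only gave 2 lower in DMSO cells. Total counts gave 4 higher in MAPKi cells and 1 higher for the interaction. Over all genes these were 1892, 1937, 1829, 3168 and 1541. The triptolide interaction gave 2 lower with DESeq2, 2 with the triptolide arm at 0 h as start, 2 with total counts and 0 with TMM. Over all genes these were 508, 582, 419 and 198. The TCHX interaction gave 1 higher with TMM, 2 with total counts and 3 with 512 stable genes. Over all genes these were 411, 678 and 801. Vehicle over 5 h gave 1 lower without the filter in DMSO cells and 6 lower with DESeq2 in MAPKi cells, where 284 and 455 of all genes were. The TDD index gave 1 higher with total counts and 1 higher at an initial level of at least 50, where 16 and 40 of all genes were.

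With the total count as covariate, chosen after seeing the data, 2 were higher with MAPKi, 10 lower with cycloheximide in MAPKi cells, 3 lower in the triptolide interaction and 8 lower in vehicle over 5 h in MAPKi cells. Over all 14948 genes the same counts were 5519, 2508, 573 and 458. Replicate numbers did not pair the samples between groups of the same time: 15 of 72 correlations of deviations were above 0.1. All 3 were in 0 of 24 pairs of groups. Pairing across the times within an arm was not checked. With the replicate block, 5 were lower in vehicle over 5 h in MAPKi cells, where 382 of all genes were, and no other count moved beyond 1.5 times.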
